A study of Mus musculus with 7 samples.

Results

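The amino acid and neurotransmitter transporters examined here are 9 genes of the plasma membrane: the GABA carriers Slc6a11 and Slc6a13, the glycine carrier Slc6a9, the taurine carrier Slc6a6, the creatine carrier Slc6a8, the glutamate carriers Slc1a2 and Slc1a3, the neutral amino acid carrier Slc1a4, and Slc7a11, the light chain of the cystine/glutamate exchanger. They were taken by name from the 55335 genes in the count files, and 7 of the 9 passed the filter on low counts that left 13305 genes for testing. Slc6a13 and Slc6a9 did not pass and are given by their counts alone. Each member was compared between genotypes and its spread among the WT samples was described.

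Mouse neural stem cells (NSCs) were cultured with EGF and bFGF, and their polyadenylated RNA was sequenced as direct cDNA on the nanopore PromethION. All samples were of strain FVB/N. The 4 WT samples carried wild-type Smchd1 and the 3 Smchd1-null samples carried the Smchd1MommeD1 allele, which takes away the function of SMCHD1, a chromatin protein that silences genes on the inactive X chromosome and in several autosomal clusters. Batch 1 (DCS108 kit) held Smchd1-null replicates 1 and 2 and WT replicate 2, batch 2 (DCS109 kit) held Smchd1-null replicate 3 and WT replicates 3 and 4, and WT replicate 1 was sequenced in both. The labels do not say whether the samples came from separate animals, so the p-values measure the spread between these samples.

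Carriers of the SLC6 family couple the uptake of GABA, glycine, taurine or creatine to the flow of sodium and chloride into the cell. Those of the SLC1 family take up glutamate or exchange neutral amino acids, and in the brain the glutamate and GABA carriers of astrocytes and radial glia clear transmitter released by neurons. The SLC7A11 protein pairs with the heavy chain encoded by Slc3a2 and exports glutamate in exchange for cystine, which the cell uses to make glutathione.

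In Gencode (GRCm38), 3 of the members lie on chromosome 6, where Slc6a6 spans 91684053 to 91759066, Slc6a11 spans 114131241 to 114249952 and Slc6a13 spans 121300227 to 121337733, all on the plus strand and apart from each other. The remaining SLC6 members are Slc6a9 on chromosome 4 (117834506 to 117875198, plus strand) and Slc6a8 on chromosome X (73673150 to 73682502, plus strand). Of the SLC1 members, Slc1a2 is on chromosome 2 (102658659 to 102790784, plus strand), Slc1a3 on chromosome 15 (8634124 to 8710764, minus strand) and Slc1a4 on chromosome 11 (20302180 to 20332713, minus strand). Slc7a11 is on chromosome 3 (49892526 to 50443614, minus strand).

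Promoter sequences from the RefSeq table (build GRCm38.p6) were matched for 7 of the 9 members. Slc6a6 and Slc6a8 had no match. The sequence before the start site of Slc6a11 is shown because this was the member with the largest genotype difference, with its CG dinucleotides in capitals, and that of Slc7a11 because it holds a motif bound by the stress factor ATF4 with its C/EBP partners, with the motif in capitals. Both are written 5′ to 3′ on the strand of the gene, for chr6:114130991-114131240 (plus strand) and chr3:50443614-50443863 (minus strand).
Slc6a11: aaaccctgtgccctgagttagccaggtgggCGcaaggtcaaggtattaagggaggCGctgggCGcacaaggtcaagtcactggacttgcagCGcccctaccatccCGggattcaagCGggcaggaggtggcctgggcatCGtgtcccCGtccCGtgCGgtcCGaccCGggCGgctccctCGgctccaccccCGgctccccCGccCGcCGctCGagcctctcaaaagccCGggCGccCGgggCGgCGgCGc
Slc7a11: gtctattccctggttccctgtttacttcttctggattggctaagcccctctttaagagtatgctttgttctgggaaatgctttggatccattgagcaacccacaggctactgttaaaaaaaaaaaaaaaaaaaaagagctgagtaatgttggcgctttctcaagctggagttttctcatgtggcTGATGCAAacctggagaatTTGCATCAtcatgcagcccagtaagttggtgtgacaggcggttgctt

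The Slc6a11 stretch held 25 CG dinucleotides in 250 bases. Over the whole table window, which runs from 250 bases before to 50 bases after the start site, Slc6a11 had 32, and 9.5% of the 32851 promoters in the table had as many. The median promoter had 7. Among the other carriers Slc1a4 had 21, Slc7a11 had 4, Slc1a3 had 3 and Slc1a2 had 1. Slc6a9 had 8 to 14 and Slc6a13 had 2 to 11, depending on the start site. The Slc1a2 window (102706188 to 102706487) lies inside the gene span given above and not at its 5′ end. The letters TGATGNAA, searched on both strands, occurred in 3.97% of all promoters and at least 2 times in 0.07% of them. Slc7a11 held them 2 times, at 66 to 59 bases before the start on the strand of the gene and at 47 to 40 bases before it on the opposite strand, where they read TTGCATCA as printed. Slc1a4 held them once, across its start site, and the promoters of the other members in the table held none. These matches are a description of the letters in the window.

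The 7 libraries held 33.3 M counts in all, between 2.74 and 7.74 M per sample. A floor of 3 counts equals between 0.399 and 1.13 CPM (counts per M counts, scaled by the trimmed mean of M-values), depending on the library. Smchd1 itself was between 55.7 and 74.7 CPM in WT and between 12.8 and 18.4 CPM in Smchd1-null, which is a difference of -2.15 on the log2 scale (adjusted p = 1.10e-04, limma, SE 0.18). The 10 neural stem cell markers all passed the filter, with a summed level of 8371 to 12884 CPM in WT and 8070 to 9522 CPM in Smchd1-null. Most of the sum was Fabp7, at 5059 to 9464 CPM in WT and 4511 to 6211 CPM in Smchd1-null. WT replicate 4 was the highest WT sample in 5 of the 10. Nes was lowest there, at 211 CPM against 283 to 409 CPM in the other WT samples. WT replicate 4 stood apart from the other WT samples: it received the lowest sample weight (0.45), and the summed level of 10 astrocyte markers was 1939 CPM against 1009 to 1085 CPM in the other WT samples. The genotype difference of each transporter is therefore given with and without it. In RNA from whole cultures, fewer cells of a type and less RNA per cell cannot be told apart.

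Levels in WT cells were compared per kilobase of gene length. The paper states that long-read protocols skip fragmentation and in theory have no length bias. The order without the division is therefore given as well. Slc1a3, the glutamate carrier of radial glia, was highest at 82.2 ± 24.2 CPM per kilobase (SD, n = 4). Slc6a11 followed at 23.7 ± 11.8 and the neutral amino acid carrier Slc1a4 at 17.7 ± 2.35 CPM per kilobase (SD, n = 4), and the WT ranges of these 2 genes overlapped. The creatine carrier Slc6a8 was at 6.85 ± 0.58 and the taurine carrier Slc6a6 at 4.36 ± 0.55 CPM per kilobase (SD, n = 4), with ranges that did not overlap. Slc1a2, the main glutamate carrier of mature astrocytes, was at 2.10 ± 1.96 and Slc7a11 at 0.75 ± 0.40 CPM per kilobase (SD, n = 4). The ranges of Slc6a6 and Slc1a2 overlapped, as did those of Slc1a2 and Slc7a11. Without division by length the order was the same except that Slc6a6 came before Slc6a8. The WT ranges of these 2 genes then overlapped, at 32.8 to 43.5 CPM for Slc6a6 and 32.5 to 39.8 CPM for Slc6a8. Those of Slc6a11 (86.4 to 209 CPM) and Slc1a4 (63.7 to 83.3 CPM) then did not, so both overlaps depended on the division. The overlaps per kilobase came from the lower gene of each pair in WT replicate 4. The levels there were 21.2 CPM per kilobase for Slc1a4, 5.01 for Slc1a2 and 1.33 for Slc7a11. Among the other WT samples the ranges of these pairs did not overlap.

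**Figure D1:**
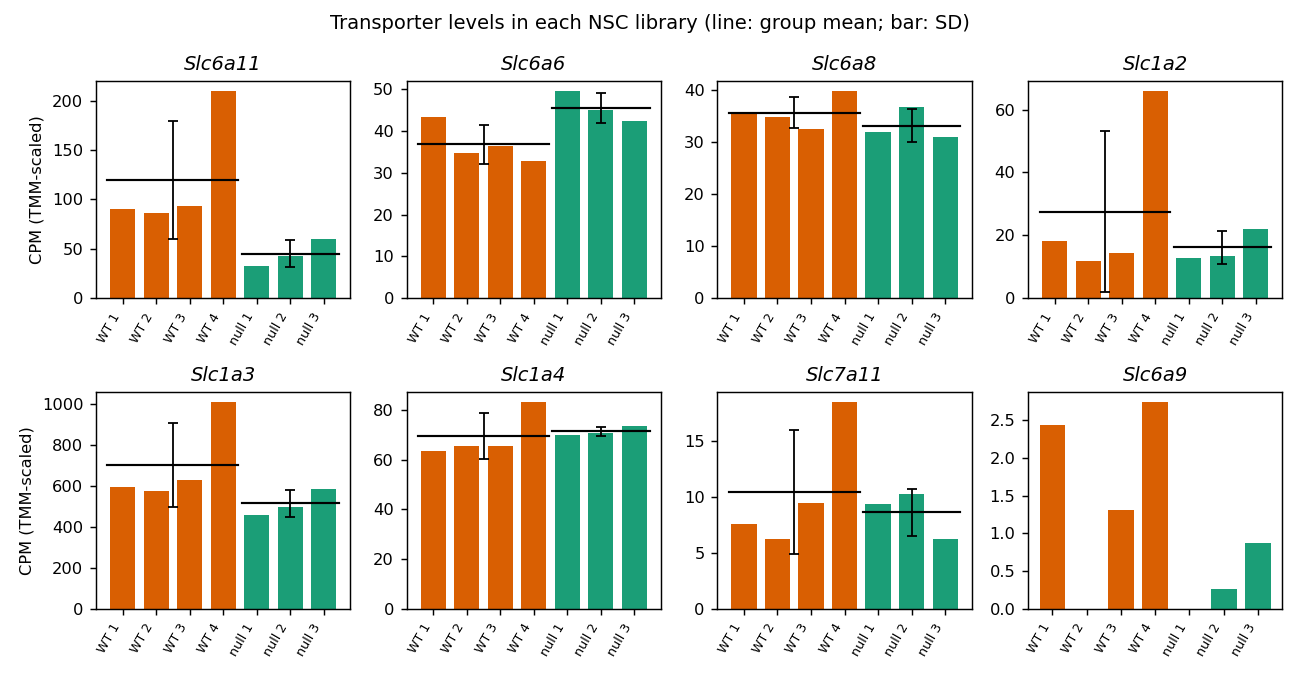
Level of 8 transporters in each of the 7 NSC libraries, as CPM on an axis that starts at 0, with WT in orange, Smchd1-null in green, and the group mean and SD in black (not drawn for Slc6a9). Slc6a11 was lower in all 3 Smchd1-null libraries than in all 4 WT libraries, and WT replicate 4 had the highest WT bar in every gene shown except Slc6a6.

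The GABA carriers came first. Slc6a11, which in the brain takes up GABA mainly into astrocytes, has no exon that overlaps one of another annotated gene. It was at 90.1, 86.4, 93.3 and 209 CPM in WT replicates 1 to 4 and at 32.3, 42.9 and 59.3 CPM in Smchd1-null replicates 1 to 3. All 3 Smchd1-null samples lay below all 4 WT samples, a pattern shown by 3.01% of the tested genes. The WT mean was 119.8 ± 59.8 CPM (SD, n = 4) and the Smchd1-null mean 44.8 ± 13.6 CPM (SD, n = 3). The Smchd1-null mean was 37.4% of the WT mean, which was raised by WT replicate 4. On the log2 scale Slc6a11 fell by 1.31 (SE 0.23, 95% CI -1.80 to -0.83, adjusted p = 0.0498, limma). It was the only transporter whose adjusted p was under 0.05, which held for 0.0902% of the tested genes (0.0451% as lower in Smchd1-null). It was also the only one under 0.25, which held for 1.08% (0.609% lower without Smchd1, 0.474% higher).

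The genotype difference of Slc6a11 was -1.21 log2 within batch 1 and -1.23 log2 within batch 2, each batch holding 1 sample of one genotype and therefore no test. Batch 2 held WT replicate 4, and its difference was -0.65 log2 without that library, a value added after seeing the data for this gene and for those below. Without WT replicate 4 the log2 fold change was -1.15 (adjusted p = 0.0346, limma). The adjusted p depended on the test: it was 0.00445 by DESeq2 (log2 fold change -1.42) and 0.412 by the edgeR quasi-likelihood test (-1.41). It also depended on single libraries. It was 0.223 without WT replicate 1, 0.124 without WT replicate 3, 0.996 without Smchd1-null replicate 1 and 0.884 without Smchd1-null replicate 2. Of all tested genes 0.0839%, 0.327%, 0.00733% and 0.0149% passed 0.25 in these fits, against 1.08% with all 7 samples. Smchd1-null replicates 1 and 2 had the highest sample weights (2.03 and 1.83). By voom without sample weights the adjusted p was 0.520 (log2 fold change -1.33). The log2 fold change was between -1.43 and -1.04 when any library was left out. With the replicate number as a block the log2 fold change was -0.96 (adjusted p = 0.00624, limma). The labels do not give these numbers as pairs, and WT replicate 4 adds nothing to that fit.

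The summed level of the astrocyte markers was 1039.8, 1085, 1009 and 1939 CPM in WT replicates 1 to 4 and 727, 840.05 and 1013 CPM in Smchd1-null replicates 1 to 3. Of the 10 markers 9 were tested. Aldoc (log2 fold change -0.81, adjusted p = 0.233) and Fgfr3 (-0.51, adjusted p = 0.233) fell at the 0.25 cutoff in limma, as did 0.609% of all tested genes. Without WT replicate 4 no marker passed it, with log2 fold changes of -0.66 for Aldoc and -0.45 for Fgfr3. By edgeR and by DESeq2 0 of the 9 passed. In limma 3 had an unadjusted p under 0.05, all lower (33.3%, against 13.9% of all tested genes in either direction). The median log2 fold change of the list was -0.58, beside 0.005 over all tested genes. Without WT replicate 4 it was -0.45 over 7 tested markers. Aldh1l1, an enzyme of folate metabolism used as an astrocyte marker, was the only tested marker with a log2 fold change above 0, at 0.15 (adjusted p = 0.689, limma). None of the 10 was at 0 in all libraries. Gfap, the filament of mature astrocytes, was between 0.488 and 6.002 CPM in WT and between 0 and 4.76 CPM in Smchd1-null. Of the 10 neural stem cell markers, all tested, 3 also had an unadjusted p under 0.05 in limma, all lower (30%). None passed 0.25, and the median over that list was -0.23 log2 (-0.21 without WT replicate 4). The part of astrocytes in the Slc6a11 result was not tested.

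Slc6a13, the other GABA carrier among the members, known mainly from the meninges, liver and kidney, had 1 count in the 7 libraries together, in Smchd1-null replicate 2. Slc6a12, the betaine and GABA carrier that lies next to it on chromosome 6, also had 1 count, in Smchd1-null replicate 3.

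Genes tested within 500 kb of the Slc6a11 start site included Sec13, a subunit of the vesicle coat (log2 fold change 0.17, adjusted p = 0.545), the DNase family gene Tatdn2 (-0.32, adjusted p = 0.461) and the histamine receptor gene Hrh1, 267 kb away (0.03, adjusted p = 0.954, all limma). None of these passed the 0.25 cutoff.

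The genes whose pattern over the 7 libraries was most like that of Slc6a11 were named by the root mean square difference of their centred log-CPM values, which was 0.85 for the median gene. The 5 nearest were Paqr8 (0.17), Cyfip2 (0.22), Hacl1 (0.24), Epas1 (0.27) and Tgfb2 (0.27). Paqr8 encodes a membrane progesterone receptor, and its level was 47.9, 36.0, 43.8 and 107 CPM in WT and 15.0, 21.2 and 37.7 CPM in Smchd1-null. Like Slc6a11 it was highest in WT replicate 4 and lowest in Smchd1-null replicate 1. Epas1, a hypoxia-inducible transcription factor, was between 6.03 and 18.2 CPM in WT and between 3.73 and 4.76 CPM in Smchd1-null. Since they were picked for their likeness to a gene with a genotype difference, their own differences are not separate results.

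Glycine, taurine and creatine carriers showed no genotype difference that passed the test. Slc6a9, the glycine carrier of glia, had 10, 0, 5 and 16 counts in WT replicates 1 to 4 and 0, 2 and 4 counts in Smchd1-null replicates 1 to 3. It was therefore near the floor in most libraries, and 0 counts allow up to 0.666 CPM in WT replicate 2 and 1.13 CPM in Smchd1-null replicate 1. One of its exons overlaps 46 bases of B4galt2 on the opposite strand, a gene with 1592 counts, and the use of strand in counting is not given in the sources used here. Slc6a9 did not pass the filter on low counts. In the fit of all genes with at least 1 count its log2 fold change was -1.56 (SE 1.04, adjusted p = 0.822, limma).

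Slc6a6 was at 43.5, 34.9, 36.4 and 32.8 CPM in WT and at 49.5, 45.0 and 42.4 CPM in Smchd1-null. Only WT replicate 1 reached into the Smchd1-null range. The log2 fold change of the taurine carrier was 0.30 (SE 0.14, 95% CI -0.01 to 0.61), which did not pass the test (adjusted p = 0.374, limma), and it was 0.43 within batch 1, 0.29 within batch 2 and 0.26 without WT replicate 4. Slc6a6 was the one tested transporter in which WT replicate 4 was the lowest WT sample. Slc6a8, which lies on the X chromosome, was at 35.7, 34.9, 32.5 and 39.8 CPM in WT and 31.9, 36.7 and 31.0 CPM in Smchd1-null. Its groups overlapped, with a log2 fold change of -0.03 and a 95% CI of -0.35 to 0.28 (adjusted p = 0.937, limma), and without WT replicate 4 the log2 fold change was -0.0058.

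The glutamate carriers were marked by the spread within WT. Slc1a3 was at 596, 573, 628 and 1009 CPM in WT and at 459.8, 497 and 585 CPM in Smchd1-null. Smchd1-null replicate 3 lay within the WT range and the other Smchd1-null samples lay below it. The log2 fold change was -0.39 (SE 0.14, 95% CI -0.70 to -0.09), with an adjusted p = 0.3001 in limma, and -0.26 and -0.45 within batches 1 and 2. Without WT replicate 4 the batch 2 difference was -0.10. Slc1a3 passed 0.25 when WT replicate 2 (-0.44, adjusted p = 0.138) or Smchd1-null replicate 3 (-0.45, adjusted p = 0.103) was left out and not when WT replicate 4 was left out (-0.30, adjusted p = 0.441, limma). In the fits where it passed, 22.7% and 23.5% of all tested genes passed as well.

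Slc1a2 was at 18.1, 11.8, 14.4 and 65.8 CPM in WT and at 12.8, 13.4 and 22.1 CPM in Smchd1-null. Apart from WT replicate 4 the groups covered the same range. The log2 fold change of -0.41 had a 95% CI of -1.17 to 0.35 (adjusted p = 0.595, limma) and was -0.07 without WT replicate 4. Within batch 1 the difference was 0.15 and within batch 2 it was -0.48 on the log2 scale, which turned to 0.60 without WT replicate 4. Slc1a4, which carries serine, alanine and other neutral amino acids, was at 63.7, 65.7, 65.5 and 83.3 CPM in WT and at 70.2, 70.7 and 73.6 CPM in Smchd1-null. Its log2 fold change was 0.08 (95% CI -0.19 to 0.34, adjusted p = 0.796, limma) and 0.12 without WT replicate 4.

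Slc7a11, whose promoter is printed above, was the least abundant tested member. It had 31, 28, 36 and 108 counts in WT and 25, 77 and 29 counts in Smchd1-null, which equal 7.57, 6.22, 9.44 and 18.5 CPM and 9.38, 10.2 and 6.28 CPM. The groups overlapped and the batches differed in sign, with a difference of 0.62 within batch 1 and -1.03 within batch 2 on the log2 scale (-0.56 without WT replicate 4). The log2 fold change was 0.03 (95% CI -0.59 to 0.65, adjusted p = 0.970, limma) and 0.23 without WT replicate 4. The edgeR and DESeq2 estimates were both -0.29, so no direction can be given. Its partner Slc3a2 was at 148, 144, 145 and 173 CPM in WT and at 166, 201 and 151 CPM in Smchd1-null, a log2 fold change of 0.25 (adjusted p = 0.393, limma) with overlapping groups.

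**Figure D2:**
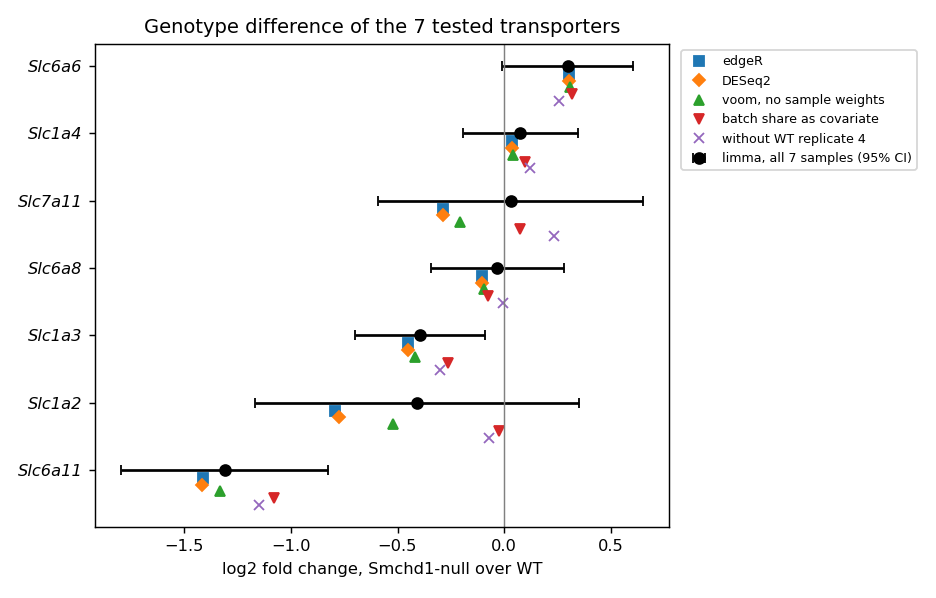
Log2 fold change, Smchd1-null over WT, of the 7 tested transporters, with the limma estimate and its 95% confidence interval in black and the estimates under 5 other settings as coloured symbols. Slc6a11 lies between -1.42 and -1.08 in all of them, while the symbols of Slc7a11 lie on both sides of 0.

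The spread among the WT samples was largest in the glutamate, GABA and cystine carriers. The SD of log-CPM over the 4 WT samples was 1.10 in Slc1a2, 0.66 in Slc7a11, 0.61 in Slc6a11 and 0.38 in Slc1a3, against a median of 0.29 over all tested genes. Among genes of like level, 99.0% had a smaller WT SD than Slc1a2, 98.3% a smaller one than Slc6a11, 90.0% a smaller one than Slc7a11 and 88.3% a smaller one than Slc1a3. The SD was smaller in the other members, at 0.18 in Slc1a4, 0.17 in Slc6a6 and 0.12 in Slc6a8, and only 9.48% of genes of like level had a smaller SD than Slc6a8.

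Most of this spread came from WT replicate 4. It was the highest WT sample in 6 of the 7 tested transporters, a place it took in 28.9% of all tested genes, while WT replicates 1 to 3 took it in 22.8%, 28% and 20.3%. In 4 of them it was at least 1.5 times the next WT sample, namely 3.64 times in Slc1a2, 2.24 times in Slc6a11, 1.96 times in Slc7a11 and 1.61 times in Slc1a3, while 5.28% of all tested genes had WT replicate 4 that far above and 1.68%, 2.53% and 1.1% had WT replicates 1 to 3 so. Without it the WT SD of log-CPM was 0.055 in Slc6a11, 0.067 in Slc1a3 and 0.30 in Slc1a2, against 0.025 in Slc1a4 and 0.069 in Slc6a8. WT replicate 3, the other WT sample of batch 2 alone, did not share the high levels. Besides the astrocyte markers, oligodendrocyte lineage markers were high in the same library, with a summed level of 1514 CPM against 1059.7 to 1114 CPM in the other WT samples and 1036 to 1066 CPM in Smchd1-null, and none of the 10 was at 0 in all libraries. The neuron list summed to between 447 and 536 CPM, of which Map2 made up between 327 and 362 CPM, and in 3 of its 8 tested markers WT replicate 4 was at least 1.5 times the next WT sample. One of these was Dcx, a microtubule protein of young neurons, at 36.2 CPM in WT replicate 4 and between 3.003 and 11.97 CPM in the other 6 libraries. The ependymal and choroid plexus list summed to between 24.4 and 44.9, the meningeal list to at most 10.1, the endothelial list to at most 8.78 and the microglia list to at most 4.29 CPM. The part of batch or of other cells in the WT spread was not tested.

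Gene length went with the genotype difference. The Spearman correlation of gene length with log2 fold change was -0.38 across the 13305 tested genes, which are not independent replicates and share the same libraries. The transporters span 3926 to 13922 bases among those tested. The median log2 fold change of genes of like length (within 1.25 times) was -0.04 for Slc6a11, and 0.764% of these had a lower fold change than Slc6a11. It was -0.17 for Slc1a2 and -0.18 for Slc7a11, the longest members. For Slc6a6 it was -0.11, below the 0.30 of the gene itself. With the length trend removed from each sample, Slc6a11 had a log2 fold change of -1.253 (adjusted p = 0.0532, limma), just outside the 0.05 cutoff.

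**Figure D3:**
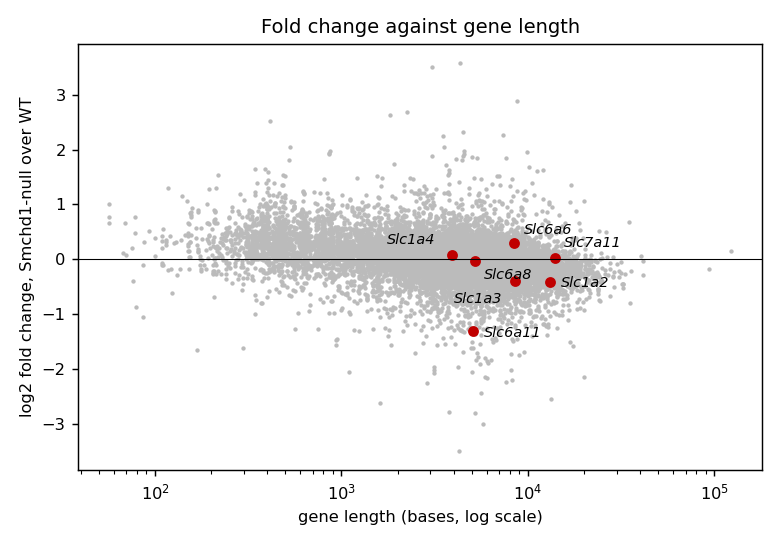
Log2 fold change, Smchd1-null over WT, against gene length in bases on a log scale, for the 13305 tested genes (grey) and the 7 tested transporters (red). The grey cloud slopes downwards (Spearman rho -0.38), and Slc6a11 lies below nearly all genes of its length.

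The other carriers and the enzymes and receptors that handle the same substrates were read as 12 lists with 89 tested genes among their 158. Of the 89, 2 passed the 0.25 cutoff in limma, both higher in Smchd1-null and both in the list of Atf4 targets, and 21 had an unadjusted p under 0.05 (23.6%, against 13.9% of all tested genes). By edgeR and by DESeq2 none passed 0.25, nor did any in limma without WT replicate 4. In that limma fit 0.334% of all genes passed, against 1.08% with all 7 samples. The median log2 fold change of the 7 tested transporters was -0.03, beside 0.005 over all tested genes.

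Among the other SLC6 carriers 3 of 16 were tested and none passed 0.25 in limma. Of the other SLC1 carriers 3 of 4 were tested and none passed 0.25. Slc1a5, the glutamine exchanger, was at 28.6, 27.1, 28.8 and 19.4 CPM in WT and between 27.4 and 29.4 CPM in Smchd1-null, so that WT replicate 4 was here the low sample. Slc1a6, a glutamate carrier known from Purkinje cells, was between 1.31 and 2.44 CPM in WT and between 3.46 and 6.01 CPM in Smchd1-null. These levels rest on 10, 6, 5 and 12 counts in WT and 16, 28 and 16 counts in Smchd1-null. All Smchd1-null samples lay above all WT samples, as in 2.52% of the tested genes. The log2 fold change of Slc1a6 was 1.24 and did not pass (adjusted p = 0.288, limma).

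Among the SLC7 and SLC3 carriers 7 of 15 were tested, with a median log2 fold change of 0.25 and none past 0.25. Slc7a5, the carrier of large neutral amino acids that also pairs with the Slc3a2 product, was at 37.1, 37.1, 33.0 and 24.7 CPM in WT and at 56.3, 52.6 and 29.9 CPM in Smchd1-null (log2 fold change 0.56, adjusted p = 0.297, limma). The 2 Smchd1-null samples of batch 1 were the high ones. In the SLC38 and SLC36 families 9 of 15 were tested and none passed. The glutamine carrier Slc38a3, known from astrocytes, was at 105 CPM in WT replicate 4 and between 33.8 and 46.9 CPM in the other 6 libraries, while Slc38a2 was between 117 and 149 CPM in all 7. None of the 4 vesicular GABA and glutamate carriers, which load transmitter into synaptic vesicles of neurons, was tested, and their summed level was at most 2.38 CPM.

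Enzymes of GABA and glutamate metabolism had a median log2 fold change of -0.15 over 10 tested of 12, with 3 lower at an unadjusted p under 0.05 and none past 0.25 in limma. WT replicate 4 was the highest WT sample in 8 of the 10. Glud1, the mitochondrial glutamate dehydrogenase, was at 237, 238, 245 and 511 CPM in WT and at 192, 211 and 236 CPM in Smchd1-null (log2 fold change -0.37, adjusted p = 0.362, limma). Like Slc6a11 it was more than 2 times as high in WT replicate 4 as in the next WT sample, but its Smchd1-null samples lay just under the other WT samples. In 3.01% of the tested genes all Smchd1-null samples lay below all WT samples. Got1, which interconverts aspartate and glutamate, was at 120.04 CPM in WT replicate 4 and between 71.7 and 90.3 CPM elsewhere.

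Glycine and serine enzymes were all tested, 10 of 10, with 3 higher at an unadjusted p under 0.05, none past 0.25 and a median log2 fold change of -0.05. The serine synthesis genes Psat1 (298 to 438 CPM in WT, 304 to 416 CPM in Smchd1-null) and Phgdh (158 to 193 CPM in WT, 166 to 197 CPM in Smchd1-null) overlapped between genotypes. The 7 creatine and taurine enzymes had no gene past 0.25 and none at an unadjusted p under 0.05. Ckb, brain creatine kinase, was between 3321 and 4222 CPM in all libraries, and Gatm, the first enzyme of creatine synthesis, was at 363 CPM in WT replicate 4 and between 116 and 189.99 CPM in the others.

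In the cystine and glutathione list 11 of 12 were tested and none passed 0.25, with a median log2 fold change of 0.08 and 1 gene in each direction at an unadjusted p under 0.05. Glutathione reductase, Gsr, was between 73.7 and 87.8 CPM in all libraries. Of the 12 Atf4 targets 10 were tested, with a median log2 fold change of 0.46 and 5 higher at an unadjusted p under 0.05. Ddit4, the highest of the list per kilobase, went the other way (log2 fold change -0.16, adjusted p = 0.719, limma). It was at 336, 431, 562 and 879 CPM in WT and at 382, 479 and 472 CPM in Smchd1-null. Asns, the asparagine synthetase, was at 49.1, 48.0, 64.0 and 49.6 CPM in WT and at 87.8, 93.7 and 66.2 CPM in Smchd1-null. All its Smchd1-null samples lay above all WT samples, as in 2.52% of the tested genes, and it rose by 0.69 on the log2 scale (adjusted p = 0.176, limma). Atf5 rose by 0.76 (adjusted p = 0.233). Without WT replicate 4 neither passed 0.25, though the log2 fold changes were nearly the same. They were 0.67 for Asns (adjusted p = 0.284) and 0.77 for Atf5 (adjusted p = 0.367, limma). In that fit 43 of all genes passed 0.25, against 144 with all 7 samples. Atf4 itself was at 202, 219, 221 and 198 CPM in WT and at 303, 314 and 197 CPM in Smchd1-null, so that the Smchd1-null samples of batch 1 were high and that of batch 2 was not. Batch was given beside these values and its part was not tested. Slc7a11, a known target of Atf4 with 2 matches to its motif, showed the values given above and did not pass.

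Receptors were tested for 6 of 26 GABA and glycine genes and 14 of 26 glutamate genes, and none passed 0.25 in limma. Their median log2 fold changes were -0.02 and -0.18, with 2 genes each at an unadjusted p under 0.05. The GABA receptor subunit gene Gabrg1 was between 46.9 and 82.8 CPM in WT and between 45.4 and 71.9 CPM in Smchd1-null, and Gabbr1 was between 50.1 and 70.3 CPM in WT and between 38.7 and 51.4 CPM in Smchd1-null. Gria2, an AMPA receptor subunit, was between 303 and 429 CPM in WT and between 336 and 424 CPM in Smchd1-null. Grm5, a metabotropic glutamate receptor, was at 188, 119.5, 168 and 203 CPM in WT and at 117, 112 and 138 CPM in Smchd1-null, a log2 fold change of -0.50 (adjusted p = 0.275, limma).

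**Figure D4:**
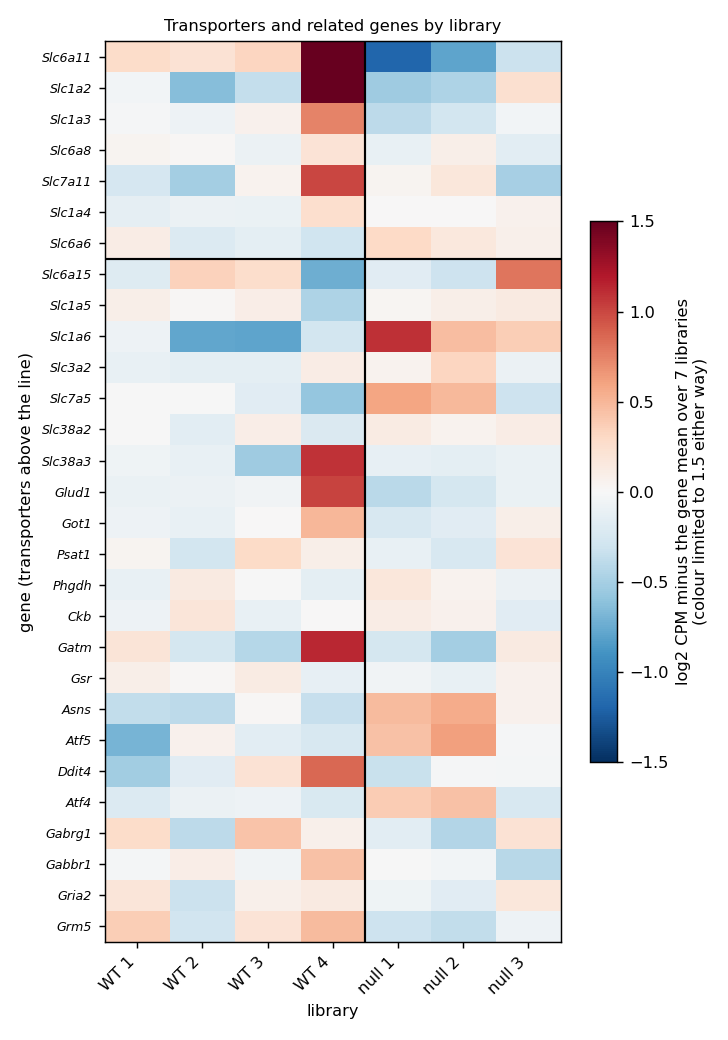
Log2 CPM of each gene minus its mean over the 7 libraries, with red above and blue below the mean, for the 7 tested transporters (above the line) and named genes of the related lists. WT replicate 4 is the reddest column, and Slc6a11 is below its mean in all 3 Smchd1-null libraries.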

How the data were processed

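The deposited files held gene-level counts of nanopore long reads per the labels. According to the study's methods, the authors aligned reads to mm10 with minimap2 (version 2.17 in the submitters' processing notes) and counted primary alignments with featureCounts in long-read mode on Gencode GRCm38, runs of WT replicate 1 being summed. Use of strand in counting is not given in the sources used here. Depth was 2.74 to 7.74 M counts per sample.

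Symbols were matched to Gencode with the version of the identifier ignored (55154 of 55335 identifiers). All 7 samples were fitted by genotype in R 4.3.3 with filterByExpr, TMM scaling (edgeR 4.0.16) and limma 3.58.1 (voomWithQualityWeights, eBayes). The two-sided p-values of 13305 genes were adjusted by Benjamini-Hochberg. Log-CPM used a prior count of 2. The members and lists were chosen with earlier results of these data known. Named genes were the 9 members, Smchd1, the nearest relative and the partner, tested neighbours of Slc6a11 within 500 kb, the 5 genes most like it, and from each list those past 0.25 and the 2 highest per kilobase. Some items are not reported here. Some cell type markers and B4galt2 are named besides, after their values were seen. The alternatives were edgeR and DESeq2 1.42.0, other scalings and filters, batch as a covariate, the replicate number as a block, removal of the length trend (lowess, span 0.3), thinning, and leaving out each sample. The lists and the batch 2 differences without WT replicate 4, and edgeR with batch, were added after seeing the data. The fits were tested on simulated data with 200 changed genes. The simulated counts held no outlying library and no batch, so they cannot speak for the fits on these features of the data.

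Replicate numbers are shared between groups. Same-numbered samples had correlations of their deviations from the group means of -0.04, 0.36 and 0.09, so the numbers were not taken as pairs.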

Additional observations from a re-analysis of the deposited data

Results flagged for a closer look

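Of 38 named genes, among them Smchd1, neighbours of Slc6a11 and the 5 genes most like it, 7 had a WT sample far from the other 3 by Dixon's test, where chance alone flags about 1 in 20 (1.9 of 38). Of all 13305 tested genes 5.58% had such a sample. In 5 of the 38 WT replicate 4 was the high one, as in 1.02% of all tested genes, and the genes most like Slc6a11 were chosen for sharing its pattern. Slc6a11 was at a log-CPM of 7.71 there, against 6.44 to 6.55 in the other WT samples. Slc1a3 was at 9.98 against 9.16 to 9.30 and Slc1a4 at 6.39 against 6.004 to 6.05. Glud1 was at 8.998 against 7.89 to 7.94, and Slc3a2 was at 7.44 against 7.18 to 7.22. The glutamine exchanger gene Slc1a5 was instead low in WT replicate 4, at 4.31 against 4.78 to 4.87. In WT replicate 3 Asns was high, at 6.01 against 5.597 to 5.64. Slc1a2, with the largest WT spread of the transporters, was not among the 7.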

How the results depend on the processing

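Smchd1 passed 0.05 under all 21 alternatives (log2 fold change -2.25 to -1.86). Slc6a11 was lower in Smchd1-null under all 21 (-1.43 to -0.93) and passed 0.25 under 15. It lost the 0.05 cutoff with edgeR (-1.41), voom without sample weights (-1.33), all genes with at least 1 count (-1.33), batch as a covariate without WT replicate 1 (-1.12), the length trend removed (-1.253) and edgeR with batch (-1.18, chosen after seeing the data), with adjusted p between 0.0532 and 0.520. Leaving out 1 library gave -1.43 to -1.04 (adjusted p 0.0155 to 0.996). The cause was not tested. Slc6a6 and Slc1a4 kept their side and direction under all 21. The sign turned for Slc6a8 with the length trend removed (0.032) and with the replicate block and the length trend removed together (0.021). It turned for Slc1a2 under the block (0.22) and the block with the length trend removed (0.29). It turned for Slc7a11 with edgeR (-0.29), DESeq2 (-0.29), unweighted voom (-0.21), library size alone (-0.015), all genes (-0.079) and edgeR with batch (-0.12), and leaving out 1 library gave -0.31 to 0.23. None of these values passed 0.25.

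The number of transporters past 0.25 was 0 with edgeR, unweighted voom, all genes and edgeR with batch, and 0 to 2 when 1 library was left out. List genes past 0.25 numbered 0 in place of 2 without WT replicate 4, and all genes past 0.25 numbered 43 in place of 144. Over all genes, 12 passed 0.05 and 144 passed 0.25. The corresponding counts were 1 and 8 with edgeR, 17 and 32 with DESeq2, 1 and 10 with unweighted voom, 2 and 22 with all genes, 9 and 346 with at least 10 counts in every sample, 19 and 74 with batch, 5 and 31 with batch without WT replicate 1, 5 and 119 with thinned counts, and 1 and 7 with edgeR and batch, and leaving out 1 library gave 1 to 161 and 1 to 3153. The replicate block gave 23 and 129, and 36 and 146 with the length trend removed. In the block fits, Slc6a11 was at -0.96 (adjusted p = 0.00624) and -0.93 (adjusted p = 0.00575, limma). WT replicate 4 shares its number with no Smchd1-null sample and adds nothing to the block fit. A gene with 3 counts or fewer, as Slc6a13, is at the limit of this depth.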
